A study of Homo sapiens with 12 samples.

Results

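Pancreatic cancer cells that had received both an siRNA against ARNT and low oxygen were compared with cells that had received neither. The cells were AsPC-1, an established human pancreatic adenocarcinoma line. The combined group, labelled Hypoxia_siARNT, was transfected with siARNT, kept at 1% O2 for the last 24 h and harvested 48 h after transfection. The baseline group, labelled Normoxia_siControl, was transfected with siScramble and kept at 21% O2 until the same harvest. Each group had 3 libraries, lettered A, B and C, so the comparison used 6 of the 12 libraries of the study. The other 6 libraries held the single treatments, Hypoxia_siControl (siScramble, 1% O2) and Normoxia_siARNT (siARNT, 21% O2), with 3 libraries each. All 4 groups carried an siRNA delivered with Lipofectamine RNAiMAX, so the baseline is transfected cells and not untouched ones. The libraries came from 1 cell line, and the labels do not tie a letter to a separate culture. The p-values therefore measure the spread between these libraries, which may be technical.

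ARNT, also called HIF-1β, is the common partner of several transcription factors of the bHLH-PAS family. When oxygen falls, the prolyl hydroxylases EGLN1 to EGLN3 no longer mark HIF-1α (gene HIF1A) and HIF-2α (gene EPAS1) for destruction, and the α subunits pair with ARNT and bind ACGTG sequences near genes of glycolysis, pH control, angiogenesis and collagen modification. The aryl hydrocarbon receptor (AHR) also pairs with ARNT, and this pair binds GCGTG sequences near genes of xenobiotic metabolism such as CYP1A1. The comparison asks what state is left when low oxygen meets a shortage of ARNT, and how far that state is the sum of the single treatments.

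Poly(A) RNA was sequenced, and reads were counted per gene. Levels are given in CPM, the read count of a gene scaled to the depth of its library after trimmed-mean scaling between libraries. They are not corrected for gene length, so levels are compared between libraries and not between genes. Changes are log2 fold changes from 1 edgeR quasi-likelihood model of all 12 libraries, and a gene is said to rise or fall when its Benjamini-Hochberg adjusted p over the 16999 tested genes was under 0.05. The sum of the single treatments is the hypoxia change with siControl plus the siARNT change at 21% O2, both on the log2 scale. The departure is the combined change minus that sum, and it equals the hypoxia change with siARNT minus the hypoxia change with siControl. Errors are standard errors (SE), with n = 3 libraries per group.

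The libraries held 38525512 to 84337166 reads in genes. Libraries differed in how strongly they favoured genes of high GC content. The slope of a gene's log2 level, relative to the 12-library mean, on its GC fraction was 4.15 in Normoxia_siARNT B and 2.35 in Hypoxia_siARNT C, and it lay between -2.06 and 1.19 in the other 10 libraries. Ductal epithelial marker genes (14 genes, among them EPCAM and KRT19) summed to 8450 to 8960 CPM at baseline and 8640 to 10000 CPM in the combined group. The endothelial, acinar and endocrine marker sums reached at most 1.02 CPM in any library of any group. Of the fibroblast and leukocyte markers, 5 of 9 and 5 of 9 had at most 10 counts in any library. The fibroblast sum was 402 to 449 CPM at baseline and 391 to 464 CPM in the combined group. It was 337 to 413 CPM with siARNT alone and 547 to 573 CPM with hypoxia alone. Of 4 tested fibroblast markers, 0 were called in the combined comparison. The leukocyte sum, 209 to 227 CPM at baseline and 139 to 157 CPM in the combined group, was mostly LYZ. The fit called LYZ lower (-0.60 ± 0.09 log2 units, adjusted p = 0.000543). In bulk RNA, fewer cells of a kind and less RNA per cell cannot be told apart.

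ARNT was reduced to about the same level with and without hypoxia. Its level was 60.7, 63.6 and 63.0 CPM in the 3 baseline libraries and 16.0, 15.8 and 14.1 CPM in the 3 combined libraries. All combined values lay far below all baseline values, and the fall was 2.03 ± 0.07 log2 units (adjusted p = 1.14e-08). Normoxia_siARNT had 13.3, 12.8 and 13.9 CPM and Hypoxia_siControl 70.3, 64.8 and 72.2 CPM, and the departure was 0.05 (95% interval -0.16 to 0.26). The genes of its partners did not fall with it. HIF1A stood at 106, 93.8 and 105 CPM at baseline and 114, 95.8 and 82.5 CPM under both treatments (-0.06 ± 0.11, adjusted p = 0.721). EPAS1 rose from 91.1, 96.6 and 89.9 CPM to 124, 129.8 and 134 CPM, by 0.48 ± 0.07 (adjusted p = 0.000365). AHR rose from 186, 176 and 187 CPM to 278, 230.4 and 219.5 CPM, by 0.41 ± 0.10 (adjusted p = 0.0106). Among the oxygen-sensing hydroxylases, all 3 rose: EGLN3 by 0.70, EGLN2 by 0.74 and EGLN1 by 0.36, the last not called without Normoxia_siControl C (0.31, adjusted p = 0.0641). Of the 17 genes listed as HIF pathway components, 15 were tested, and 6 rose and 1 (ARNT) fell in the combined comparison (10.1% and 14.4% of all tested genes rose and fell); ARNT2 and HIF3A had too few counts to test. NPAS2, a clock partner of the same protein family, was the one member above the sum (107, 109.8 and 114 CPM at baseline, 93.7, 88.0 and 95.4 CPM with hypoxia alone, 146, 139 and 140.2 CPM with both, departure 0.57, adjusted p = 0.00399).

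Over all tested genes, the combined treatment changed 4164 genes (24.5%). Of these, 1717 (10.1%) rose and 2447 (14.4%) fell. A change of at least 1 log2 unit was found for 595 genes (3.5%), 337 rises (1.98%) and 258 falls (1.52%). The median change over all tested genes was 0.02, with a median SE of 0.14. For comparison, hypoxia alone changed 4298 genes (25.3%) and siARNT alone 3425 (20.1%). In the 9 libraries of the baseline and single treatment groups, these counts were 4371 and 3697, and with the library letter as a block 6642 and 7193. Within cells that already carried siARNT, hypoxia changed 696 genes (4.09%), 375 upward and 321 downward. The count of changed genes moved with single libraries: it was 2562 without Normoxia_siControl A, 2593 without Normoxia_siControl C, 3048 without Hypoxia_siARNT C and 5290 without Normoxia_siARNT B, and 6715 after a correction for GC content. With scaling by total counts, 51.8% of the calls were rises, against 41.2% here.

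The sum of the single treatments was tested gene by gene. The departure was called for 792 genes (4.66%), 422 of them above the sum (2.48%) and 370 below it (2.18%). Large departures were mostly below the sum: of the 175 called departures of at least 1 log2 unit (1.03% of tested genes), 146 (0.859%) were below and 29 (0.171%) above. This split is without GC correction. All genes called above and below the sum had median GC contents of 45.3% and 49.7%, against 47.7% over all tested genes. A part of GC content in the split was not tested. For 5121 genes (30.1%) the whole 95% interval of the departure lay within 0.5 log2 units of 0, and for 10731 (63.1%) within 1. The count of called departures was 272 without Normoxia_siControl C and between 295 and 487 without any 1 of Normoxia_siControl A or B, Normoxia_siARNT A or C, Hypoxia_siControl A or B, and Hypoxia_siARNT A or B. It was 749 without Normoxia_siARNT B, 987 without Hypoxia_siControl C, 1188 without Hypoxia_siARNT C and 3071 after the GC correction. With scaling by total counts it was 1495, of which 75.3% were above the sum, against 53.3% here.

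The siARNT change was carried over into hypoxia more fully than the hypoxia change was carried over into siARNT. Of the 3425 genes that siARNT changed at 21% O2, 3146 (91.9%) had a change of the same sign between the siARNT and siControl libraries at 1% O2, and the median ratio of the latter change to the former was 0.835. Of the 4298 genes that hypoxia changed with siControl, 3549 (82.6%) had a change of the same sign with siARNT, with a median ratio of 0.295. The first pair of changes shares no library, and neither does the second, so these are descriptions over separate samples. The difference between the ratios was not tested. Genes were chosen as called in the first change of each pair, which tends to lower both ratios. Genes called up and down had median GC contents of 53.3% and 43.1% with siARNT alone, and 48.3% and 45% with hypoxia alone. The ratios are without GC correction, and a part of GC content in them was not tested.

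**Figure D1:**
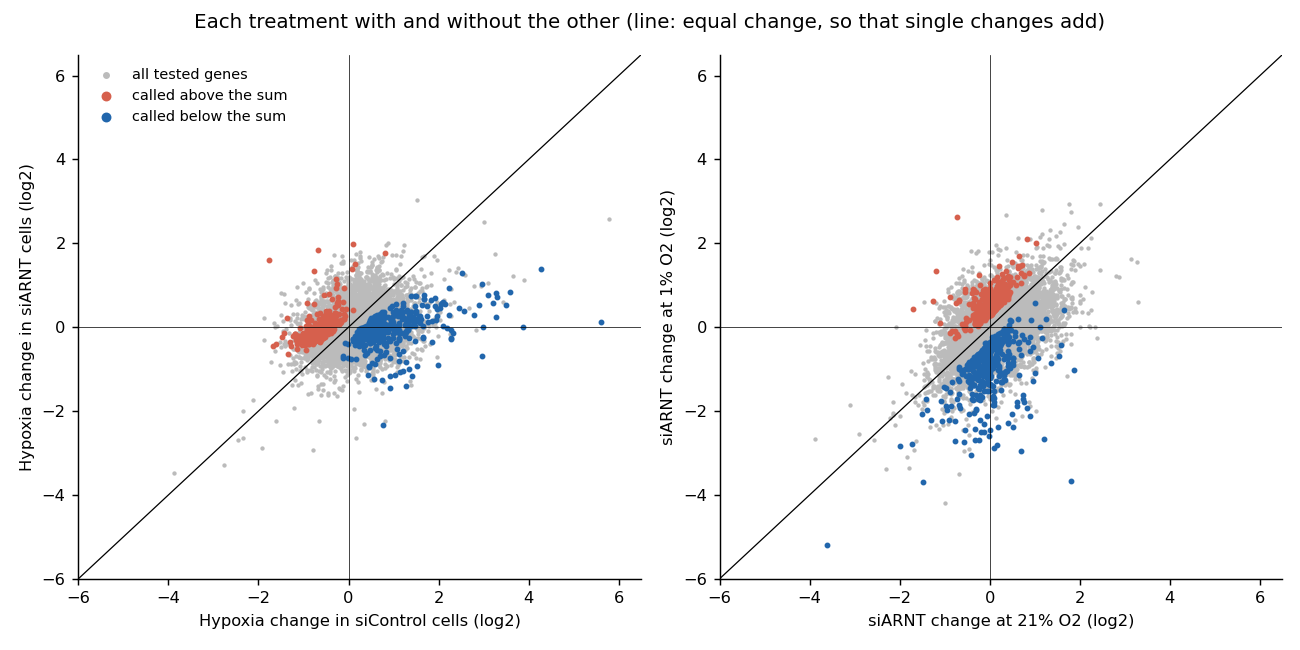
Each point is 1 tested gene. Left: log2 change with hypoxia in siControl cells (x) and in siARNT cells (y); right: log2 change with siARNT at 21% O2 (x) and at 1% O2 (y). Red points were called above the sum of the single treatments (422 genes) and blue points below it (370 genes); the diagonal marks an exact sum. On the left the blue points are mostly hypoxia rises in siControl cells and lie near 0 in siARNT cells. There the departure is the y value minus the x value, which favours this pattern among called points. In the right panel 1 gene lies beyond the axes.

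Among the genes named here, the deepest falls under both treatments were those of the AHR targets CYP1A1 and CYP1B1. CYP1A1, a cytochrome P450 that oxidises polycyclic aromatic compounds, had 374, 243 and 265 reads in the baseline libraries and 1, 1 and 2 reads in the combined libraries. These counts were at or under a floor of 3 reads per library, so CYP1A1 was at least 76.3-fold lower than at baseline. With siARNT alone the libraries held 16, 10 and 5 reads, and with hypoxia alone 545, 448 and 384 reads. The 250 bases before its start are shown because the ARNT partners' motifs stand side by side there. The window is chr15:74725529-74725778, minus strand, printed in the direction of transcription, from RefSeq on GRCh38.p14. Capitals mark GCGTG, the AHR and ARNT motif, at position -57 and CACGT, the reverse complement of the HIF motif ACGTG, at position -48, where -1 is the last base before the gene's start and a position names the motif's first base.
CYP1A1: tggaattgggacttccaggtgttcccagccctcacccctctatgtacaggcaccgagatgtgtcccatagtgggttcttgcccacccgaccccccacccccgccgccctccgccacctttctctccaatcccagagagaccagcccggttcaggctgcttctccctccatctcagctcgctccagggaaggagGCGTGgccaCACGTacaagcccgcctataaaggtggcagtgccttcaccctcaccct

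CYP1B1, a related enzyme that also acts on steroid hormones, fell from 51.6, 43.4 and 46.2 CPM to 1.78, 1.73 and 1.68 CPM. The groups did not overlap, and the fall was 4.76 ± 0.13 log2 units (adjusted p = 2.15e-09). The single treatments moved it in opposite directions: hypoxia alone raised it to 63.5, 70.7 and 55.8 CPM, and siARNT alone lowered it to 3.78, 3.46 and 4.34 CPM. The sum of the single changes was -3.19, so the combined level lay 1.58 log2 units below it (95% interval of the departure -1.93 to -1.23, adjusted p = 0.000235). The genes that restrain AHR followed the same order of groups. AHRR, the AHR repressor, measured 48.5, 53.5 and 50.6 CPM at baseline, 14.0, 17.5 and 14.9 CPM with siARNT, 77.0, 77.8 and 75.1 CPM with hypoxia and 11.0, 10.6 and 11.5 CPM with both. TIPARP, an ADP-ribosyltransferase that dampens AHR signalling, measured 246, 217 and 240.1 CPM at baseline, 60.7, 54.2 and 62.1 CPM with siARNT, 329.6, 303 and 345 CPM with hypoxia and 50.7, 45.8 and 40.0 CPM with both. In both genes the combined libraries were the lowest and the hypoxia libraries the highest, with no overlap between any groups. Their combined falls were 2.21 ± 0.08 (adjusted p = 2e-08) and 2.36 ± 0.10 (adjusted p = 2.82e-08), and their departures were -1.08 (adjusted p = 0.000335) and -0.85 (adjusted p = 0.00399).

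Of 13 listed AHR targets, 11 were tested, and 9 of these fell in the combined comparison, where 14.4% of all tested genes fell. Their median change was -1.10, against 0.02 over all tested genes. With hypoxia alone 4 rose (10.4% of all tested genes rose), and with siARNT alone 8 fell (10.8% of all tested genes fell). Within siARNT cells, hypoxia lowered 4 of the 11 (1.89% of all tested genes), the reverse of its direction in siControl cells: CYP1A1, CYP1B1, TIPARP and AHRR. The same 4 were the members called below the sum (2.18% of all tested genes), and this set of 4 was named after its values were seen. NQO1, a quinone reductase, fell from 678, 662 and 660.4 CPM to 457, 445 and 436 CPM (-0.58), with 466, 436 and 449 CPM under siARNT alone and a departure of 0.04 (95% interval -0.11 to 0.19). NFE2L2, which encodes the oxidative stress factor NRF2, fell by 0.67 and the growth factor EREG by 0.80, with departures of -0.04 and -0.28. The departures of NQO1, NFE2L2 and EREG were not called. With the GC correction that of EREG was called (-0.33, adjusted p = 0.0112 by edgeR). UGT1A6 fell by 1.10. UGT1A10, which is not on the list, fell by 2.09, with a departure of -0.57 (adjusted p = 0.0371), a call lost in 8 of the 12 leave-one-out fits (adjusted p 0.0769 to 0.104). These glucuronidation genes share their last exons, so reads may be split between them and both values are uncertain. GCGTG, searched on both strands, was found in 7 of the 9 AHR targets with a RefSeq promoter window (77.8%), against 44.6% of the windows of tested genes.

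**Figure D2:**
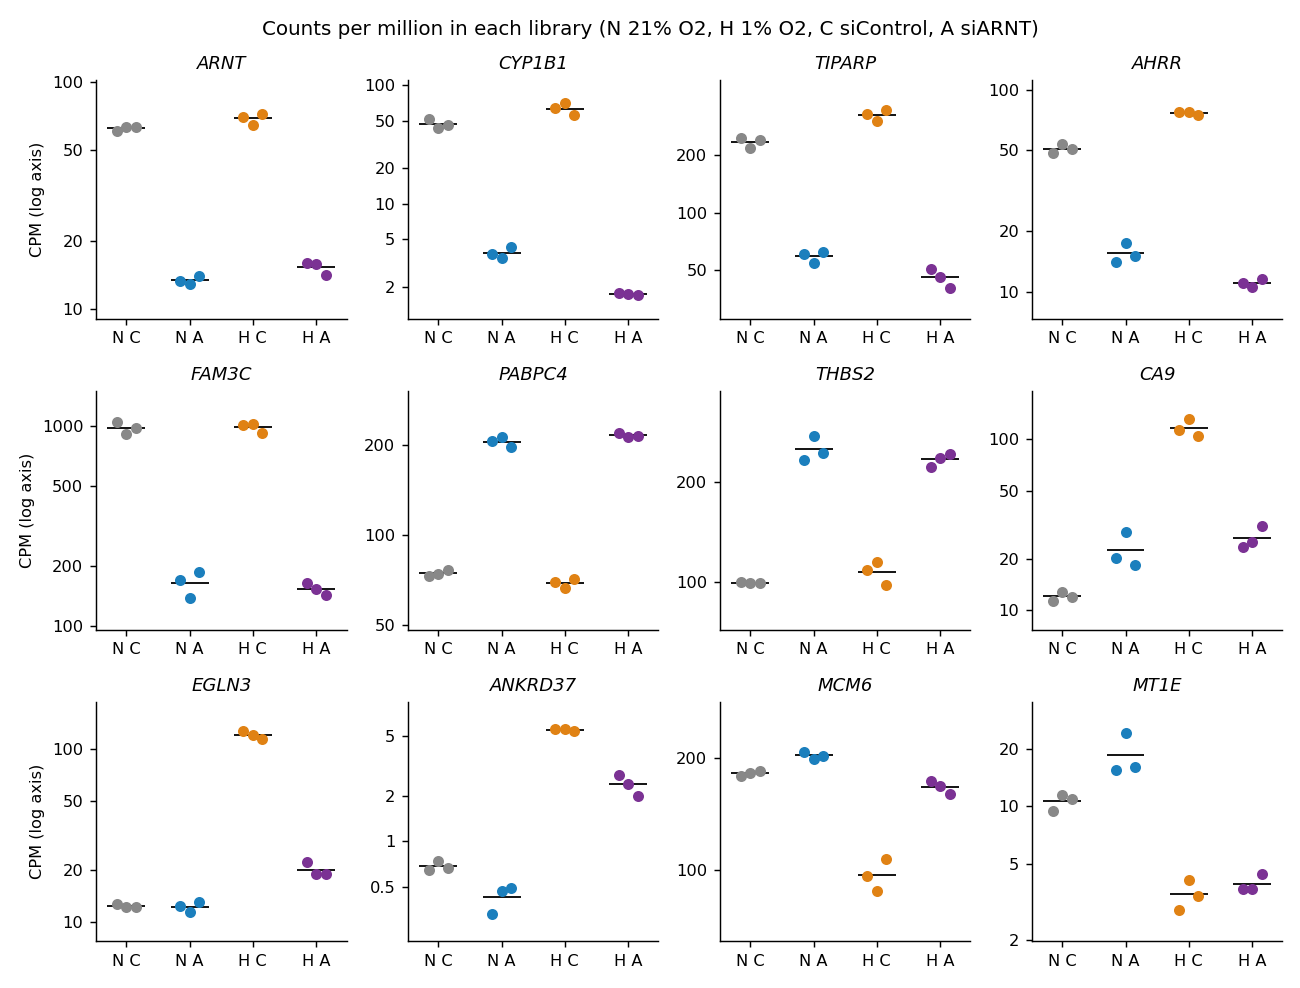
Level of 12 genes in every library, in CPM on a log axis; NC is Normoxia_siControl, NA Normoxia_siARNT, HC Hypoxia_siControl and HA Hypoxia_siARNT. Points are the 3 libraries of a group and the line is their mean. CYP1B1, AHRR and TIPARP are lowest in HA; CA9 and EGLN3 are highest in HC and far lower in HA; MCM6 is low in HC alone.

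**Figure D3:**
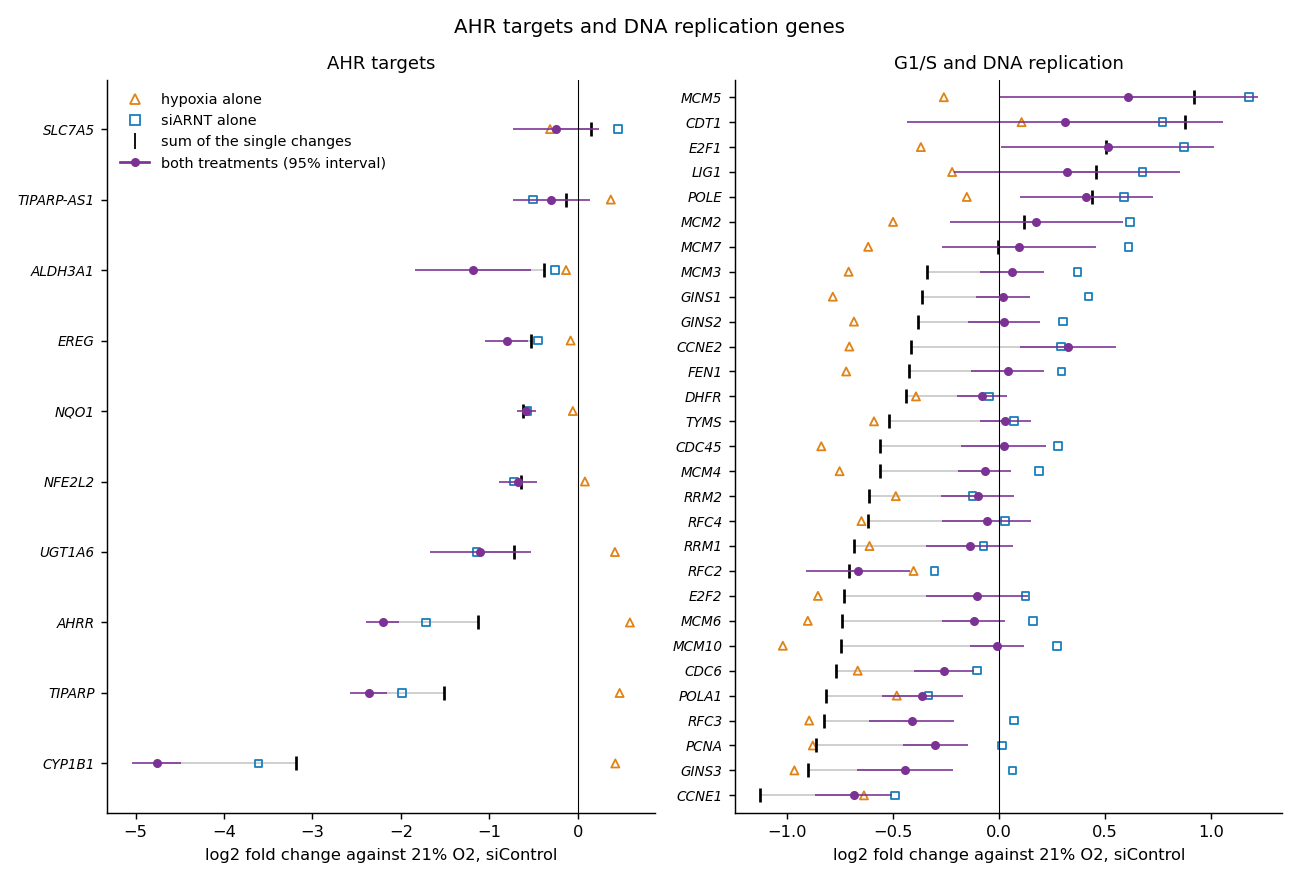
Log2 change from baseline of AHR targets (CYP1A1, whose combined counts were at the floor, is left out) and of 29 genes of G1/S and DNA replication. Symbols give hypoxia alone, siARNT alone, the sum of both and the combined change with its 95% interval. CYP1B1, AHRR and TIPARP lie below their sums, and most replication genes lie above theirs and near 0.

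HIF target genes, which hypoxia alone raised almost throughout, stood much nearer to baseline under both treatments. Of 53 listed HIF targets, 49 were tested. In the combined comparison 15 rose and 2 fell, where 10.1% of all tested genes rose, and the median change was 0.34. With hypoxia alone 44 rose and 2 fell (10.4% of all tested genes rose), with a median of 1.12. With siARNT alone 8 rose and 6 fell (9.39% and 10.8% of all tested genes), with a median of 0.07. The departure was called below the sum for 29 of the 49 (2.18% of all tested genes) and above it for 1, with a median of -1.02. Per library, the median over the HIF targets, as log2(CPM + 0.1) minus the baseline mean, was 1.17, 1.32 and 1.10 with hypoxia alone and 0.16, 0.21 and 0.39 with both treatments. No combined library reached any hypoxia library, and the highest combined library was Hypoxia_siARNT C. The count of 17 combined calls became 33 (25 of them rises) after the GC correction and 27 (23 rises) without Normoxia_siARNT B, and it was 13 to 20 without any other single library. PLOD2 and SLC2A3 had 0 to 3 reads in each baseline library and 0 to 8 in each combined library, and no fold is given for them.

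The 250 bases before the start of 3 HIF targets are shown because they ended in different places: CA9 and ENO2 stayed above baseline and LDHA returned to it. The sequences are from RefSeq on GRCh38.p14, plus strand, and capitals mark ACGTG or its reverse complement CACGT, which together form the palindrome CACGTG where they overlap. CA9 is chr9:35673678-35673927 with a match at position -18, ENO2 is chr12:6914330-6914579 with a match at -118, and LDHA is chr11:18394313-18394562 with 5 matches, 4 of them in 2 palindromes.
CA9: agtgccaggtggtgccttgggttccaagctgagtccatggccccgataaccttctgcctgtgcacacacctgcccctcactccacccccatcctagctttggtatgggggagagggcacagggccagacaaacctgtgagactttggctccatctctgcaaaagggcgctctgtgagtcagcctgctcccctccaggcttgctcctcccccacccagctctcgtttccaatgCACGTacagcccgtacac
ENO2: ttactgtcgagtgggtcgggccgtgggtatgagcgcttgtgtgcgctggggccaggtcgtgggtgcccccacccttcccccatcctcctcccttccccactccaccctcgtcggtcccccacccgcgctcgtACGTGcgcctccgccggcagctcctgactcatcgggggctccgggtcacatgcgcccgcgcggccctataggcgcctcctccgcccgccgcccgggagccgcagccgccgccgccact
LDHA: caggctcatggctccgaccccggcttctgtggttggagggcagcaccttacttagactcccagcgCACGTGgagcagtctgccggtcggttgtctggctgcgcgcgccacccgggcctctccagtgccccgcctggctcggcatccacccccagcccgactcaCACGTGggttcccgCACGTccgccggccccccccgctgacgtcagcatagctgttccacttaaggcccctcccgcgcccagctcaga
ACGTG, searched on both strands, was present in 22 of the 41 HIF targets with such a window (53.7%), against 23.1% of the windows of tested genes and 18.6% of all 27305 windows.

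CA9, a carbonic anhydrase of the cell surface that regulates pH, had the most negative departure among genes of at least 5 CPM. It measured 11.3, 12.8 and 12.0 CPM at baseline, 20.3, 28.6 and 18.3 CPM with siARNT, 113, 129.9 and 105 CPM with hypoxia and 23.5, 24.9 and 31.1 CPM with both. The combined libraries lay above baseline (1.14 ± 0.16, adjusted p = 0.000496) and overlapped the siARNT libraries, and the hypoxia change within siARNT cells was 0.24 ± 0.16 and was not called. The sum of the single changes was 4.16 and the departure -3.02 (95% interval -3.53 to -2.52, adjusted p = 3.42e-05). EGLN3, the hydroxylase most responsive to HIF, measured 12.7, 12.3 and 12.2 CPM at baseline, 128, 121 and 114 CPM with hypoxia and 22.4, 18.9 and 19.0 CPM with both (departure -2.57, adjusted p = 8.09e-07). Its combined libraries remained above all baseline libraries. NDRG1, a stress-induced differentiation gene, went from 132, 141 and 130.5 CPM to 1199, 1192 and 1048 CPM with hypoxia and 187, 188 and 228 CPM with both (departure -2.32, adjusted p = 1.48e-05). APOL1, an apolipoprotein of innate immunity that is not on the HIF list, is shown because it was among the 5 most negative departures: 28.4, 31.3 and 29.6 CPM at baseline, 150.4, 152 and 145 CPM with hypoxia and 24.8, 27.3 and 30.0 CPM with both. Its combined change was -0.12 ± 0.09 (adjusted p = 0.378) and its departure -2.45 (adjusted p = 4.59e-06).

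LDHA, PDK1 and ENO2 are HIF targets of glucose metabolism that were chosen after their values were seen. LDHA, lactate dehydrogenase A, measured 2709, 2545 and 2664 CPM at baseline, 2136, 1947 and 2061 CPM with siARNT, 7133, 6827 and 6832 CPM with hypoxia and 2943, 2555 and 2447 CPM with both. The combined range spanned the baseline range, with a change of 0.00 ± 0.07 (95% interval -0.15 to 0.16), and hypoxia still raised it by 0.37 within siARNT cells. PDK1, which keeps pyruvate out of the mitochondria, measured 40.0, 35.6 and 40.1 CPM at baseline, 102, 94.1 and 104 CPM with hypoxia and 40.9, 39.4 and 38 CPM with both (departure -1.34, adjusted p = 2.44e-05). For PDK1 the hypoxia change within siARNT cells was 0.03 ± 0.07 and was not called. ENO2, a second enolase, kept part of its rise: 1.54, 1.82 and 1.67 CPM at baseline, 13.3, 13.9 and 11.8 CPM with hypoxia and 2.91, 3.58 and 4.36 CPM with both. It rose by 1.11 ± 0.15 in the combined comparison (adjusted p = 0.000351) and departed from the sum by -1.94 (adjusted p = 0.000419).

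Within siARNT cells, hypoxia raised 8 of the 49 HIF targets (2.21% of all tested genes rose): ANKRD37, ENO2, P4HA1, NDRG1, KDM3A, EGLN3, BNIP3L and LDHA. ANKRD37, an ankyrin repeat protein, had the largest of the 8 rises, 2.50 ± 0.18, against 3.00 ± 0.17 with siControl. It measured 0.645, 0.744 and 0.668 CPM at baseline, 0.327, 0.465 and 0.49 CPM with siARNT, 5.57, 5.50 and 5.34 CPM with hypoxia and 2.74, 2.39 and 2.00 CPM with both. All combined libraries lay between the baseline and the hypoxia libraries, the combined rise was 1.80 ± 0.17 (adjusted p = 2.25e-05), and the departure of -0.50 was not called (95% interval -1.03 to 0.03). P4HA1, a collagen prolyl hydroxylase, rose by 0.94 with hypoxia within siARNT cells, against 2.24 with siControl. KDM3A, a histone demethylase, rose by 0.74 with siARNT and by 1.49 with siControl. Both ended above baseline, P4HA1 by 0.53 and KDM3A by 0.51. VEGFA, the angiogenic growth factor, rose in both single treatments, by 1.17 with hypoxia and 0.55 with siARNT. Its combined level was 56.4, 62.8 and 69.5 CPM against 31.1, 35.5 and 30.6 CPM at baseline, a rise of 0.96 ± 0.14 (adjusted p = 0.000446). Its departure of -0.77 (adjusted p = 0.0433) was not called with total count scaling, nor when any 1 of 10 libraries (all but Hypoxia_siControl C and Hypoxia_siARNT C) was left out, where it lay between -0.84 and -0.64. INSIG2 and P4HA2 were the 2 targets that fell, by 0.35 and 0.40, although hypoxia alone raised both; each call was lost without Hypoxia_siARNT B, that of INSIG2 also without Normoxia_siControl A or Hypoxia_siARNT C, and that of P4HA2 without Normoxia_siControl B. The departure of INSIG2, -0.51 (adjusted p = 0.0457), was not called with RLE scaling (adjusted p = 0.0597) nor in 10 of the 12 leave-one-out fits. CA12, a second carbonic anhydrase, was the one target above the sum: it fell by 0.34 with hypoxia alone and rose by 0.60 with both (departure 0.63, adjusted p = 0.0118, and 0.0556 with no filter on low counts).

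**Figure D4:**
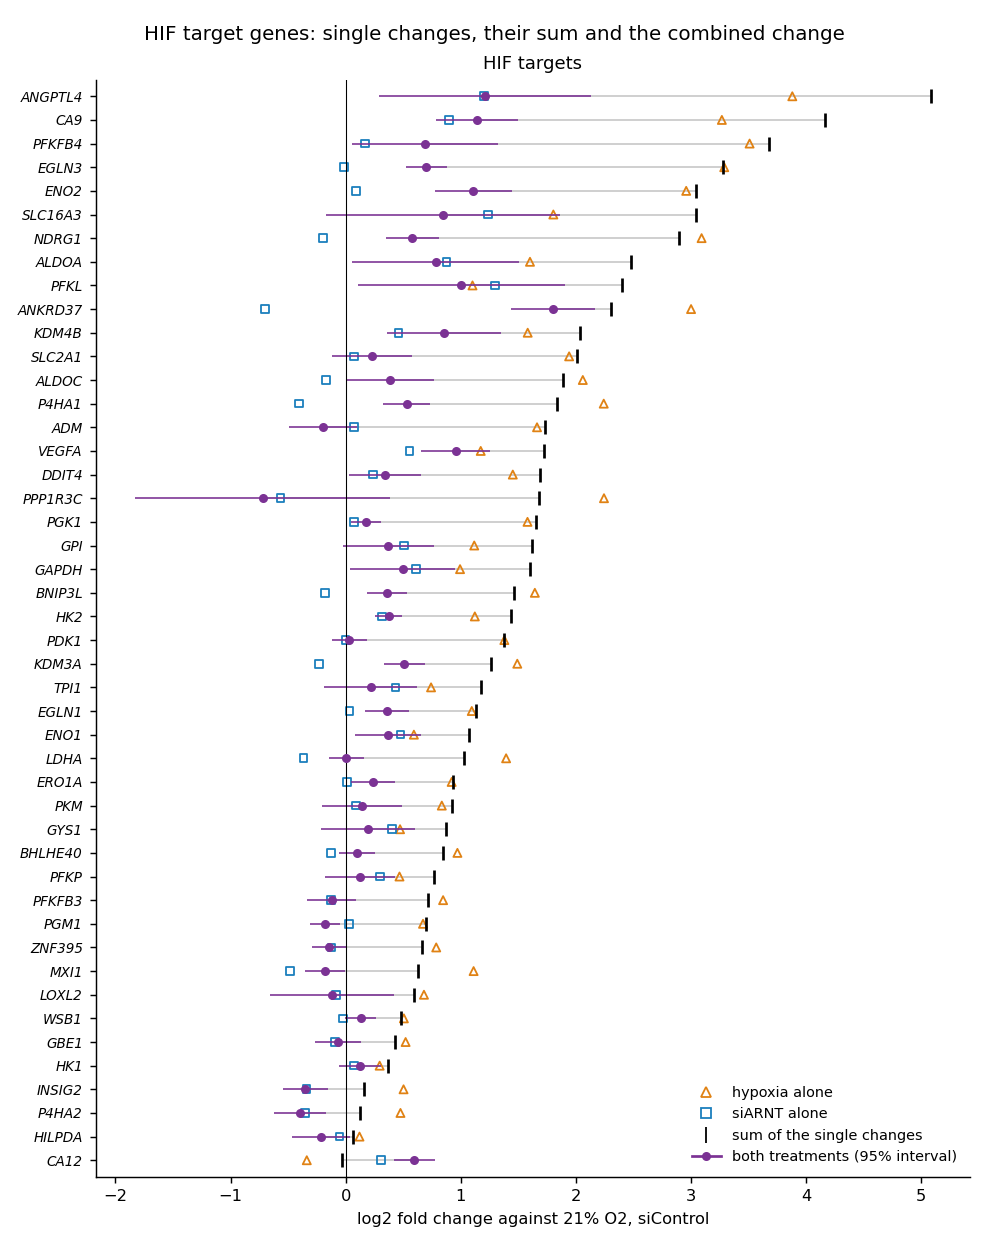
Log2 change from baseline of the tested HIF targets reported here (PLOD2 and SLC2A3, at the floor at baseline, are left out). Triangles give hypoxia alone, squares siARNT alone, ticks the sum of both, and dots the combined change with its 95% interval. Most dots lie between 0 and 1 and to the left of their ticks; ANKRD37 is the highest dot, at 1.80.

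Genes of DNA replication fell with hypoxia alone and stood near baseline under both treatments. MCM6, a subunit of the replicative helicase, measured 178, 182 and 185 CPM at baseline, 208, 199 and 202 CPM with siARNT, 96.7, 87.7 and 107 CPM with hypoxia and 173, 168 and 160.1 CPM with both. The hypoxia libraries were the lowest, and the combined libraries lay just under baseline (-0.12 ± 0.07, adjusted p = 0.228). MCM10, which helps load the replication machinery, measured 46.2, 43.7 and 44.8 CPM at baseline, 21.7, 21.1 and 23.7 CPM with hypoxia and 46.2, 43.7 and 44.1 CPM with both. Its combined and baseline libraries overlapped, and the departure was 0.74 (95% interval 0.56 to 0.92, adjusted p = 0.000478). PCNA, the polymerase clamp, recovered only in part: 202, 192 and 207 CPM at baseline, 108, 107 and 111 CPM with hypoxia and 178, 159 and 151 CPM with both. It remained lower by 0.30 (adjusted p = 0.00866).

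Of 30 listed genes of G1/S and DNA replication, 29 were tested. In the combined comparison 1 rose and 7 fell (14.4% of all tested genes fell), with a median of -0.01. With hypoxia alone 23 fell (14.9% of all tested genes fell), with a median of -0.65. With siARNT alone 11 rose and 2 fell (9.39% of all tested genes rose), with a median of 0.19. The departure was called above the sum for 16 of the 29 (2.48% of all tested genes), with a median of 0.45. In single libraries the list median relative to baseline was -0.65, -0.69 and -0.62 with hypoxia alone and -0.05, -0.04 and -0.03 with both, so the groups did not overlap. The number of called departures fell to between 6 and 9 when Normoxia_siControl A, B or C, Normoxia_siARNT A or C, Hypoxia_siControl A or B, or Hypoxia_siARNT B was left out, and it was 24 after the GC correction. The 8 combined calls became 5 without Normoxia_siControl C. The 7 falls included cyclin E1 (CCNE1, -0.69), the clamp loader subunit RFC2 (-0.67) and GINS3 (-0.44). Cyclin E2 (CCNE2) was the one rise, by 0.33, a call that was lost when any of 9 libraries was left out; its departure of 0.74 lost the call in 4 of the 12 leave-one-out fits (adjusted p 0.0538 to 0.0625). Of 31 genes of mitosis and G2/M, 22 fell with hypoxia alone (median -0.39), and 6 fell and 1 rose in the combined comparison (median -0.07). Only 1 of these departures was called, above the sum (median 0.27), and the count ran from 0 to 8 when 1 library was left out and was 16 after the GC correction. BUB1, a spindle checkpoint kinase, fell by 0.61, and MKI67, a marker of cycling cells, rose from 391, 410.4 and 439 CPM to 585, 551 and 508 CPM (0.41, adjusted p = 0.00158).

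Nuclear genes of the respiratory chain also fell with hypoxia alone, by less. Of 45 tested, 29 fell with hypoxia alone (14.9% of all tested genes fell), with a median of -0.24. In the combined comparison 1 rose and 4 fell (14.4% of all tested genes fell), a share no higher than the background, with a median of -0.02. ATP5F1A, a subunit of ATP synthase, was the one rise, from 491, 497 and 490.4 CPM to 573, 569 and 571 CPM, with 389, 394 and 393 CPM under hypoxia alone. Its departure was 0.30 (adjusted p = 0.023), a call that 7 of the 12 leave-one-out fits lost (adjusted p 0.0622 to 0.0742). The falls were small: NDUFB6 of complex I by 0.34 and UQCRC2 of complex III by 0.23, the latter lost without any 1 of 5 baseline or combined libraries. Departures were called above the sum for 5 of the 45 (2.48% of all tested genes). This count ran from 0 without Normoxia_siControl A to 12 without Hypoxia_siARNT C. Of the 13 mitochondrially encoded genes, 4 fell, led by MT-ND6 (-0.51), MT-ATP8 (-0.43) and MT-CO2 (-0.34), and the MT-ATP8 call was lost without any 1 of 5 baseline or combined libraries, that of MT-ND6 without Hypoxia_siARNT B. The median of these genes relative to baseline was uneven between combined libraries: -0.04, -0.18 and -0.39 in Hypoxia_siARNT A, B and C. Of 50 ribosomal protein genes, 6 fell (12%, below the background), with RPS27A lowest at -0.54.

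Among genes chosen with a limit of at least 5 CPM, the largest rises under both treatments were rises of siARNT alone as well. ANKRD37, described above, rose more but lay under this limit. It rose with hypoxia alone and not with siARNT alone. Among called genes of at least 5 CPM whose combined and baseline libraries did not overlap (42.4% of all tested genes), the 10 largest rises were GAS6, PABPC4, RSAD2, TM4SF5, DACT1, LGALS2, LRP1, THBS2, APLP1 and IL1RAP. With siARNT alone 10 of these 10 rose (9.39% of all tested genes rose). With hypoxia alone LRP1 and IL1RAP rose and DACT1 fell (10.4% and 14.9% of all tested genes). The 10 were chosen against the same baseline libraries, which favours agreement with the single treatments, so these counts are descriptive. PABPC4, a poly(A)-binding protein, measured 72.7, 74.0 and 76.3 CPM at baseline, 206, 212 and 196 CPM with siARNT, 69.2, 66.3 and 71.0 CPM with hypoxia and 219, 212 and 214 CPM with both. All libraries of both siARNT groups stood clear of both siControl groups; the combined rise was 1.53 ± 0.05 (adjusted p = 1.14e-08). THBS2, a matricellular protein that restrains angiogenesis, measured 100, 99.1 and 98.9 CPM at baseline, 233, 276 and 245 CPM with siARNT, 109, 114 and 97.9 CPM with hypoxia and 223, 237 and 244 CPM with both. Again the siARNT groups stood together, and the rise was 1.24 ± 0.08 (adjusted p = 8.21e-07). A different order was measured for DACT1, an antagonist of Wnt signalling. It fell with hypoxia alone, rose with siARNT alone and was highest with both: 8.64, 8.42 and 7.48 CPM at baseline, 16.5, 16.9 and 16.5 CPM with siARNT, 5.31, 4.81 and 5.62 CPM with hypoxia and 21.5, 21.2 and 20.1 CPM with both. Its rise of 1.36 ± 0.09 exceeded the sum by 0.97 (95% interval 0.70 to 1.24, adjusted p = 0.0011). IL1RAP, a subunit of the interleukin 1 receptor, rose by 1.06 with hypoxia, 0.92 with siARNT and 1.22 with both, 0.75 below the sum (adjusted p = 0.00306).

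In 6 of the 10 rises, the highest combined library was Hypoxia_siARNT C, which favoured GC-rich genes. GAS6, a ligand of the receptor kinase AXL, went from 4.29, 4.90 and 4.36 CPM to 9.37, 12.6 and 17.6 CPM, LRP1, an endocytic receptor, from 14.9, 21.0 and 16.7 CPM to 30.9, 37.4 and 60.4 CPM, and TM4SF5 from 3.77, 4.42 and 3.68 CPM to 6.27, 9.11 and 15.2 CPM. LGALS2, APLP1 and THBS2 had the same order of libraries. Without Hypoxia_siARNT C, LRP1 and TM4SF5 were no longer called, with changes of 0.96 and 0.96 (adjusted p = 0.0544 and 0.0916 by edgeR). Both calls were also lost without Normoxia_siControl A, and that of TM4SF5 without Normoxia_siControl C. GAS6, LGALS2 and APLP1 kept their calls without that library, at 1.28, 1.21 and 1.10, and after the GC correction, at 1.19, 1.24 and 0.88.

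A share of the interferon-stimulated genes rose under both treatments. RSAD2, the antiviral enzyme viperin, measured 2.92, 2.80 and 3.38 CPM at baseline, 9.58, 8.53 and 9.28 CPM with siARNT and 8.03, 9.49 and 7.18 CPM with both, a combined rise of 1.44 ± 0.16 (adjusted p = 7.8e-05). OASL, a sensor-related antiviral protein, measured 51.9, 55.5 and 54.1 CPM at baseline, 119.6, 162 and 118 CPM with siARNT and 98.5, 108 and 122 CPM with both (1.03 ± 0.12, adjusted p = 0.00011). In each gene the combined libraries overlapped the siARNT range or lay just under it, and all lay above baseline. Of 35 listed interferon genes 34 were tested: 11 rose and 3 fell in the combined comparison (10.1% and 14.4% of all tested genes). With siARNT alone 13 rose and 1 fell (9.39% and 10.8% of all tested genes). With hypoxia alone 3 rose and 4 fell (10.4% and 14.9% of all tested genes). The share called with hypoxia alone, 20.6%, was no higher than the 25.3% of all tested genes. The combined count was 8 without Normoxia_siControl C. SAMD9 was the largest fall, from 163, 155 and 163 CPM to 103, 85.9 and 79.0 CPM (-0.84, adjusted p = 0.000327). OAS1 was the one member called off the sum: it rose by 0.79 with hypoxia alone and by 0.26 with both (departure -0.49, adjusted p = 0.0113).

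By the same rule the 10 largest falls were CYP1B1, FAM3C, ALPG, TIPARP, GCOM1, AHRR, RASSF3, UGT1A10, CFL2 and ARNT. With siARNT alone 10 of these 10 fell (10.8% of all tested genes fell), and ARNT is the target of the siRNA. Here too the shared baseline libraries favour agreement. FAM3C, a secreted protein linked to epithelial plasticity, measured 1038, 914 and 977 CPM at baseline, 169, 137 and 185 CPM with siARNT, 1010.0, 1024 and 914 CPM with hypoxia and 163, 153 and 142 CPM with both. The siARNT groups overlapped each other far below both siControl groups, and the fall was 2.68 ± 0.11 (adjusted p = 2.72e-08). The hypoxia changes of FAM3C, 0.01 ± 0.10 with siControl and -0.10 ± 0.10 with siARNT, were not called. RASSF3, a member of the Ras association domain family, fell from 130.5, 127 and 123 CPM to 29.8, 31.8 and 27.4 CPM (-2.09), against -2.15 with siARNT alone. CFL2, a muscle-type cofilin that severs actin filaments, fell from 14.9, 14.2 and 15.1 CPM to 4.12, 3.68 and 3.38 CPM (-1.98), against -1.65 with siARNT alone. GCOM1, from 17.1, 15.3 and 16.2 CPM to 4.04, 3.51 and 2.65 CPM, is a read-through gene that overlaps its neighbours, so its reads may belong to them. ALPG fell by 2.55 ± 0.40 and lay 2.22 below the sum (adjusted p = 0.0419), a call that was lost in 9 of the 12 leave-one-out fits; it is nearly identical to ALPP, and its value is uncertain for that reason.

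Metallothioneins, small proteins that bind zinc and copper, were pulled in opposite directions by the single treatments. MT1E measured 9.47, 11.5 and 10.9 CPM at baseline, 15.4, 24.2 and 16.0 CPM with siARNT, 2.87, 4.15 and 3.39 CPM with hypoxia and 3.69, 3.68 and 4.41 CPM with both. The siARNT libraries were the highest, and the combined libraries overlapped the hypoxia libraries. The combined fall was 1.44 ± 0.19 (adjusted p = 0.000259), and the departure of -0.62 was not called (adjusted p = 0.207, unadjusted 95% interval -1.20 to -0.05). With the GC correction and the library letter as a block the departure was -0.49 and was called (adjusted p = 0.0222 by edgeR). Of 9 listed members 7 were tested; 7 fell in the combined comparison (14.4% of all tested genes fell), with a median of -1.68, against -2.34 with hypoxia alone and 0.94 with siARNT alone. Within siARNT cells hypoxia lowered 6 of the 7 (1.89% of all tested genes), with a median of -2.69. Their median departure was -0.30, with values from -0.98 to 0.42. Without Hypoxia_siARNT B, 4 of the combined falls were called. MT1M (-2.19), MT1F (-1.95) and MT1X (-1.85) were the largest falls; these genes are close copies of each other, so reads could be split among them.

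Genes of the NRF2 antioxidant programme fell more often than they rose under both treatments and under each of them alone. Of 24 tested, 13 fell in the combined comparison (14.4% of all tested genes fell), with a median of -0.21. With hypoxia alone 9 fell and 2 rose (14.9% and 10.4% of all tested genes), and with siARNT alone 10 fell and 2 rose (10.8% and 9.39% of all tested genes). AKR1C1, an aldo-keto reductase, measured 375, 325 and 338 CPM at baseline, 180.0, 167 and 161 CPM with siARNT, 415, 487 and 339 CPM with hypoxia and 180.1, 166 and 150.5 CPM with both (-1.06 ± 0.12, adjusted p = 7.96e-05). Its siARNT groups stood together, well under both siControl groups; AKR1C1 and AKR1C2 (-0.97) are close copies and their split is uncertain. TXNRD1, thioredoxin reductase, fell from 2062, 1893 and 1984 CPM to 1493, 1405 and 1324 CPM (-0.49), and AKR1B10 fell by 1.24.

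In the integrated stress response, which adjusts amino acid supply, 9 of 24 tested genes fell and 1 rose (14.4% and 10.1% of all tested genes). The transfer RNA ligase GARS1 fell from 326, 309 and 333 CPM to 166, 147 and 135 CPM (-1.11 ± 0.08, adjusted p = 2.51e-06), and both single treatments lowered it, by 0.49 and 0.77. Asparagine synthetase (ASNS) fell by 0.84, close to its fall of 0.80 with hypoxia alone. PSAT1, of serine synthesis, was the member called above the sum: 33.7, 30.5 and 31.6 CPM at baseline, 13.2, 12.2 and 12.0 CPM with hypoxia and 24.4, 24.1 and 21.3 CPM with both (departure 0.70, adjusted p = 0.00432). The number of called members was 19 after the GC correction and 6 with no filter on low counts. In cholesterol synthesis 6 of 24 tested genes fell, against 9 falls with siARNT alone and 5 rises with hypoxia alone (10.8% and 10.4% of all tested genes). INSIG1, a sterol sensor, fell by 0.54, and the GC correction raised the combined count to 13.

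Genes that fitted the sum within narrow limits were chosen as those changed in 1 direction by each single treatment and by both, with the whole 95% interval of the departure within 0.5 of 0. Among genes with a symbol, a mean of at least 5 CPM over the 12 libraries and no pseudogene label, 181 met this rule. Of these, 61 rose and 120 fell. The genes eligible for this rule were not counted, so no share is given. FGFBP1, which releases fibroblast growth factors from the matrix, measured 89.5, 87.9 and 89.2 CPM at baseline, 57.6, 56.9 and 52.2 CPM with siARNT, 53.5, 59.2 and 54.4 CPM with hypoxia and 28.4, 32.4 and 31.3 CPM with both. The single treatments lowered it about equally, by 0.67 and 0.68, and both together by 1.53 ± 0.07 (adjusted p = 5.95e-08), with a departure of -0.18 (95% interval -0.39 to 0.02). KAT2B, a histone acetyltransferase, rose by 0.63, 0.45 and 1.17 in the same order. In the other 6 examples the siARNT change was the larger of the single changes. CDS2, of phosphatidylinositol synthesis, measured 46.3, 45.3 and 45.3 CPM at baseline, 84.8, 87.3 and 88.1 CPM with siARNT, 57.2, 52.5 and 52.1 CPM with hypoxia and 102, 97.3 and 92.6 CPM with both. MPZL3 rose by 1.13 and the lipid flippase ATP8B1 by 1.10, and TMEM182, ATP5F1E and TTC26 fell by 1.31, 1.27 and 1.27. With the GC correction and the library letter as a block, a departure of -0.25 was called for MPZL3 (adjusted p = 0.0399 by edgeR).

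Among genes with a symbol, a mean of at least 5 CPM over the 12 libraries and no pseudogene label, single treatments moved 461 in opposite directions. Here too the eligible genes were not counted, so 461 is given without a share. IGFBP1, which binds insulin-like growth factors, measured 283, 254 and 268 CPM at baseline, 140.3, 129 and 146 CPM with siARNT, 554, 534 and 529 CPM with hypoxia and 149.8, 132 and 129.7 CPM with both. Hypoxia raised it by 1.01 and siARNT lowered it by 0.96, and the combined libraries overlapped the siARNT libraries. The combined fall was 0.97 ± 0.07 (adjusted p = 4.01e-06) and the departure -1.02 (adjusted p = 0.000201). PADI2, a peptidylarginine deiminase, had single changes of 1.12 and -0.94 and a combined change of -0.36 ± 0.14 (adjusted p = 0.0745). IGFL2-AS1, an antisense transcript whose reads cannot be told apart from its partner's unless strand was used in counting, rose by 1.20 with hypoxia, fell by 0.98 with siARNT and fell by 0.67 with both. Its departure of -0.89 (adjusted p = 0.0371) was lost in 10 of the 12 leave-one-out fits. ALPG, described above, was the other of the 4 opposed examples.

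Among called genes of at least 5 CPM, the 5 most positive departures were KRT23, ARSB, RTN4IP1, DDIAS and SLC26A2. Hypoxia alone lowered each of these 5 genes (14.9% of all tested genes fell). The departure subtracts the hypoxia change with siControl, so choosing positive departures favours such genes by construction. KRT23, an epithelial keratin, measured 10.0, 10.2 and 10.3 CPM at baseline, 7.72, 8.40 and 7.81 CPM with siARNT, 3.94, 3.67 and 3.39 CPM with hypoxia and 7.69, 6.35 and 6.28 CPM with both, a departure of 1.24 (adjusted p = 0.000686). Its combined libraries lay between the baseline and the hypoxia libraries. RTN4IP1, a mitochondrial protein, measured 6.49, 6.58 and 7.26 CPM at baseline, 2.93, 2.96 and 3.00 CPM with hypoxia and 7.24, 6.96 and 6.30 CPM with both, and DDIAS, an anti-apoptotic protein, 35.4, 31.4 and 35.0 CPM, 14.4, 12.4 and 16.5 CPM and 34.8, 29.3 and 25.1 CPM. The combined changes, 0.01 ± 0.09 and -0.19 ± 0.13, were not called. ARSB, a lysosomal sulfatase, passed beyond baseline: 12.1, 12.4 and 12.3 CPM at baseline, 6.88, 6.62 and 5.92 CPM with hypoxia and 20.1, 19.8 and 17.6 CPM with both (0.64 ± 0.09, adjusted p = 0.000335). The sulfate transporter SLC26A2 had a departure of 1.02 (adjusted p = 0.00528) and a combined change of -0.33 ± 0.12 (adjusted p = 0.054) that 4 of the 12 leave-one-out fits called.

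The remaining lists held changes in both directions, where 10.1% of all tested genes rose and 14.4% fell. Among 16 MAPK output genes 6 rose and 3 fell, with EGR1, an immediate early gene, up by 0.81 and the phosphatase DUSP4 down by 0.65. Among 14 tested interleukins and chemokines 2 rose and 4 fell. ICAM1 was one of the rises, by 0.76 to 1.23 across the runs (adjusted p at most 0.0391 by edgeR or DESeq2). IL1B fell from 2.04, 2.23 and 2.00 CPM to 1.36, 1.12 and 1.19 CPM although hypoxia alone raised it to 4.13, 3.42 and 3.56 CPM (departure -1.20, adjusted p = 0.0054), and CXCL5 fell by 0.75. Among 15 tested genes of epithelial and mesenchymal state 3 rose and 3 fell. CDH1, E-cadherin, went from 154, 158 and 159 CPM to 236, 228 and 232 CPM (0.56). The falls were ZEB2, OVOL1 and ESRP1. ZEB2 changed by -1.44 to -1.17 across the runs (adjusted p at most 0.0182 by edgeR or DESeq2). OVOL1 changed by -1.08 to -0.66, with adjusted p up to 0.135, so its call was lost in some runs. ESRP1, an epithelial splicing factor, fell by 0.75. The adhesion glycoprotein CEACAM5 fell from 64.8, 73.6 and 67.2 CPM to 25.8, 25.5 and 24.4 CPM (-1.44 ± 0.07, adjusted p = 9.09e-08), as with siARNT alone (-1.26). Among 15 p53 targets 4 fell and 1 rose, with CCNG1 (-0.82) and RRM2B (-0.78) lowest. Chaperones had 1 rise and 3 falls of 19 tested (21.1%), and JmjC histone demethylases 3 rises and 2 falls of 19 (26.3%), near the 24.5% of all tested genes. HSPA4L, a heat shock protein, fell by 0.80 and lay 0.66 above the sum (adjusted p = 0.0274), a departure that was lost in 7 of the 12 leave-one-out fits (adjusted p 0.0518 to 0.0836). Clock genes had 3 rises and 3 falls of 18 tested (33.3%), with DBP up by 1.17 and TEF, a related transcription factor, down by 0.94.

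**Figure D5:**
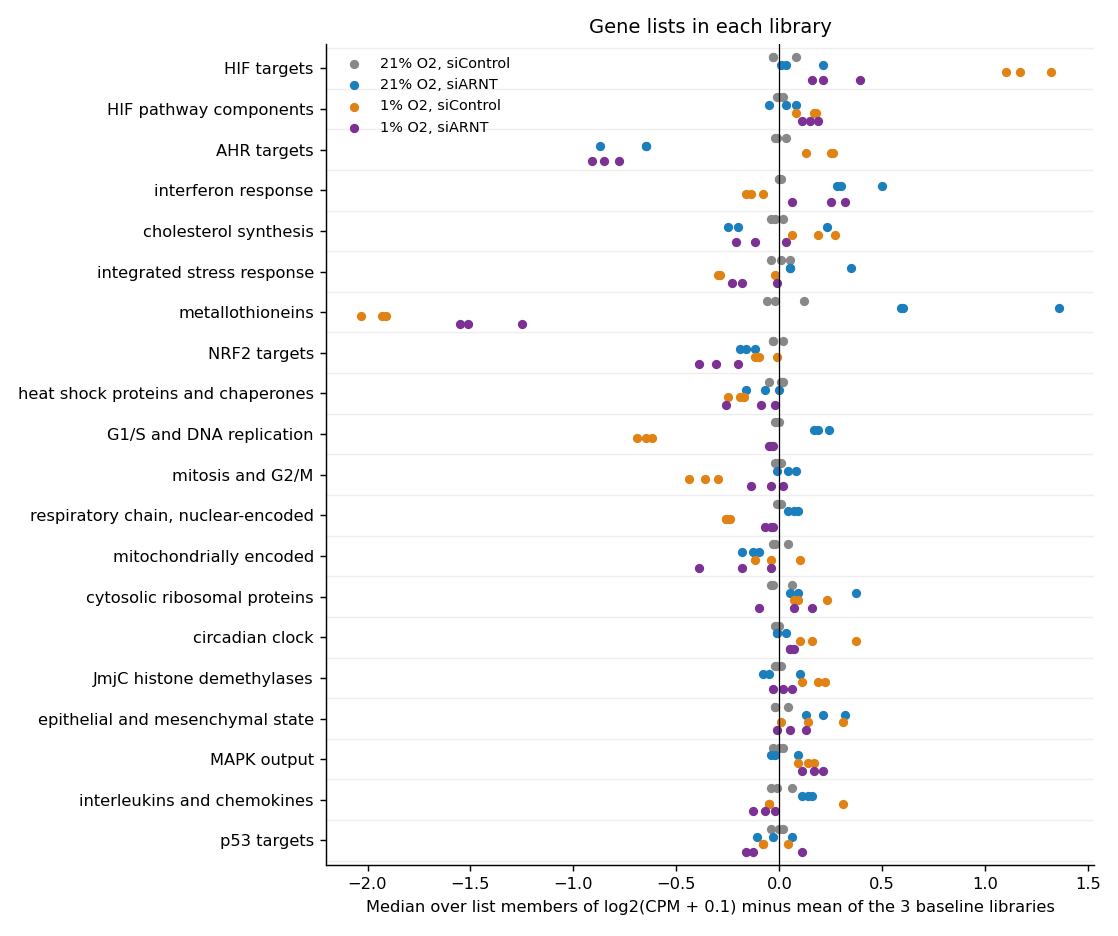
Median over the tested members of 20 gene lists in each library, as log2(CPM + 0.1) minus the baseline mean. Points are libraries, 3 per group. HIF targets are high with hypoxia alone (1.10 to 1.32) and lower with both treatments (0.16 to 0.39); G1/S genes are low with hypoxia alone (-0.69 to -0.62) and near 0 with both; metallothioneins are low with hypoxia in both arms.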

How the data were processed

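Stranded poly(A) libraries of AsPC-1 cells were sequenced as single reads, per the labels' protocols. Per the submitters' processing notes, Trimmomatic, STAR 2.4.2a and build GRCh38.p10 were used. The deposited values are raw counts of reads per gene, made by the authors with HTSeq, per the file names. The annotation and the use of strand in counting are not given in the sources used here. The gene IDs resemble an annotation of an earlier build than the one named, and no coordinates were taken from the files. Lines of unassigned reads (22.7 to 25.2% of reads) were removed. Of 57820 gene IDs, 51996 were paired with a symbol, holding 99.35% of counts.

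The 4 groups of 3 libraries, taken from the sample titles, entered 1 quasi-likelihood model with robust dispersions, after a filter on low counts (filterByExpr) and scaling by TMM, in edgeR 4.0.16 under R 4.3.3. Adjusted p-values are Benjamini-Hochberg over 16999 tested genes, and intervals are 95%. The GC correction was a lowess fit (span 0.3) per library over the 97.3% of tested genes with a GC value. The fit was tested on simulated counts. Alternatives were DESeq2 1.42.0, other scalings, filters, a replicate block and leaving out each library. A block fit of the single treatments in 9 libraries was added after seeing the data.

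Members and gene lists were chosen with earlier results of these data known. Genes named were the pathway genes, the 10 largest rises and falls, the 5 departures at each end, 4 additive and 4 opposed examples (each at a mean of at least 5 CPM) and the 3 largest called members of each list. CYP1A1, ENO2, VEGFA, P4HA1, LDHA, PDK1, CA12, INSIG2, P4HA2, BNIP3L, NQO1, NFE2L2, EREG, MCM6, MCM10, PCNA, CCNE2, MT1E, OAS1, TXNRD1, PSAT1 and NPAS2 were outside this rule and were chosen after their values were seen. Some members of the lists are not reported here by name.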

Additional observations from a re-analysis of the deposited data

Results flagged for a closer look

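The genes given here are those named in the report whose hypoxia change differed between the siARNT and the siControl cells, by the edgeR test of that difference adjusted over all tested genes. Each value is the hypoxia change with siARNT minus the hypoxia change with siControl, in log2 units, which is the departure from the sum. CYP1A1, whose difference was also called, is left out because its combined counts were at the limit of detection. Among HIF targets and hydroxylases it was -3.02 for CA9, -2.57 for EGLN3, -2.32 for NDRG1, -1.94 for ENO2 and -1.34 for PDK1. It was -1.31 for P4HA1, -1.02 for LDHA, -0.77 for EGLN1 and -0.75 for KDM3A. For VEGFA it was -0.77 (not called with total count scaling or in 10 of the 12 leave-one-out fits). For INSIG2 it was -0.51 (not called with RLE scaling or in 10 of the 12 leave-one-out fits), and for CA12 0.63 (not called with no filter). Among AHR targets it was -1.58 for CYP1B1, -1.08 for AHRR and -0.85 for TIPARP, and it was -0.57 for UGT1A10, a call lost in 8 of the 12 leave-one-out fits. Other genes below the sum were APOL1 at -2.45, ALPG at -2.22, IL1B at -1.20, IGFBP1 at -1.02, IGFL2-AS1 at -0.89, IL1RAP at -0.75, OAS1 at -0.49 and CDH1 at -0.42. The ALPG call was lost in most of the leave-one-out fits, and that of IGFL2-AS1 in 10 of the 12.

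Above the sum stood KRT23 at 1.24, ARSB at 1.08, DDIAS at 1.03, RTN4IP1 at 1.03, SLC26A2 at 1.02 and DACT1 at 0.97. Genes of replication and the cell cycle above the sum were MCM10 at 0.74, CCNE2 at 0.74 (lost in 4 of the 12 leave-one-out fits), MCM6 at 0.62 and PCNA at 0.57. The others were PSAT1 at 0.70, HSPA4L at 0.66, NPAS2 at 0.57 and ATP5F1A at 0.30. The calls of HSPA4L and ATP5F1A were each lost in 7 of the 12 leave-one-out fits.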

How the results depend on the processing

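The combined count of 4164 genes became 6715 with the GC correction and 6993 with the GC correction and the replicate block, and it ran from 2562 to 5290 when 1 library was left out. The count of changes of at least 1 log2 unit, 595, became 324 with a filter of 1 CPM in 3 libraries and ran from 442 to 695 when 1 library was left out. The count of called departures, 792, became 1495 with total count scaling, 3071 with the GC correction and 3304 with both GC correction and replicate block, and ran from 272 to 1188 when 1 library was left out. The count of departure intervals within 0.5 of 0, 5121, became 7818 with the GC correction and 8037 with the block as well, and ran from 4218 to 5768 when 1 library was left out. The combined and departure counts were 4046 and 1024 by DESeq2, 4004 and 643 with RLE scaling and 3415 and 579 with no filter. The ARNT change stayed between -2.05 and -1.97 in every alternative run. The departure of GAS6 turned from -0.11 to 0.37 with the GC correction and 0.38 with block and GC correction, and that of APLP1 turned from -0.25 to 0.29 with the latter; the cause was not tested.

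The shared letters did not pair the baseline and combined libraries: their deviations from the group means correlated at 0.705 for A, -0.16 for B and -0.552 for C. Between siARNT and combined libraries the values for A, B and C were 0.908, -0.122 and -0.851. Across letters, Normoxia_siControl B and Hypoxia_siARNT C correlated at 0.871, so deviations were shared under unlike letters. In the other 3 groups same-letter libraries did deviate together: the correlations for A, B and C were 0.703, 0.88 and 0.387 between baseline and siARNT, 0.51, 0.744 and 0.495 between baseline and hypoxia, and 0.618, 0.829 and 0.603 between siARNT and hypoxia. In a block fit of these 9 libraries, chosen after seeing the data, hypoxia alone changed 6642 genes (4371 with no block) and siARNT alone 7193 (3697 with no block), 4054 upward and 3139 downward (1727 and 1970 with no block). With the replicate block in all 12 libraries the counts were 4708 combined calls and 960 departures. That block uses the letters, which did not match between the combined group and the others. Of 113 named genes with a called combined change, 15 lost the call under 1 or more alternatives and 0 changed direction. Of 40 named genes with a called departure, 9 lost the call and 0 changed direction. Calls were also gained: among named genes not called, 4 combined changes and 27 departures were called under 1 or more alternatives. A departure that was not called is therefore no sign of an exact sum. For genes of few counts, such as CYP1A1 with 1 or 2 reads per combined library, depth limits the value to a bound.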
